A study of Mus musculus with 8 samples.

Results

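The 10 genes of the laminin scaffold of basement membranes and of its secretory chaperones are described here across siRNA 1, siRNA 2 and Control embryoid bodies. They were chosen by name, with every probe that carried one of the names taken. These are the laminin chains Lama1, Lama5, Lamb1 and Lamc1, the linker proteins Nid1 and Nid2, the proteoglycan gene Hspg2, and Sparc, Serpinh1 and P4ha2. They make up 10 of the 32530 genes on the array, through 14 probes of 39429. All 10 genes entered the test, which 22427 genes did. An accession without a symbol counts here as a gene of its own, and 15570 of the 22427 had a symbol. The probe with the highest mean over the 8 arrays stands for its gene.

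Cells of the pluripotent mouse embryonic stem cell line R1 were transfected with siRNA 1 or siRNA 2, both against CnAβ1, or with a control siRNA, and were grown as embryoid bodies for 48 h. CnAβ1 is a splice variant of a catalytic subunit of the phosphatase calcineurin, and Ppp3cb encodes this subunit. Total RNA taken 48 h after transfection was hybridised to 1-colour Agilent arrays, with 3 arrays of siRNA 1, 2 of siRNA 2 and 3 of Control. The labels name no change of genotype, all groups share the R1 background, the differentiation and a transfection, and knockdown by siRNA is transient and need not reach every cell. The labels do not state if each replicate is a culture of its own, and p-values therefore describe how these samples scatter, possibly for technical reasons.

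Basement membranes are thin sheets of matrix under epithelia. An α, a β and a γ laminin chain join in the endoplasmic reticulum into a cross-shaped trimer, which is secreted and polymerises at the cell surface, and nidogens and perlecan tie this network to collagen IV. Collagen IV itself needs prolyl hydroxylation and the collagen chaperone Serpinh1 (HSP47) before it leaves the endoplasmic reticulum. In embryoid bodies the outer endoderm lays down the first such sheet, which the inner cells need to form an epithelium, and in the mouse embryo parietal endoderm secretes these proteins in bulk for Reichert's membrane.

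The 8 arrays lay on 3 slides, and the first principal component, with 42.4% of the variance, set the 3 arrays of slide 1 (siRNA 1 replicate 1, siRNA 2 replicate 1 and Control replicate 1) apart from the others. On every slide Control lay at position 1 and siRNA 1 at 2, and on the slides with an siRNA 2 array (1 and 3) it lay at 3, so position and group cannot be told apart. Ppp3cb stood at 0.18, 0.39 and 0.60 in siRNA 1, at 0.41 and 0.62 in siRNA 2, and at 0.74, 0.52 and 0.62 in Control, in log2 signal over the 75th percentile of its array. Its level in siRNA 1 replicate 3 and siRNA 2 replicate 2 was not below the Control array of the same slide, and whether the probe reads the CnAβ1 variant was not determined. Between 68.0% and 75.1% of spots per array passed the background flag, and precision is limited by having 8 arrays.

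None of the 10 genes passed the test in either siRNA against Control, in their mean, or between the siRNAs. The background was the same: 0% of the 22427 genes were called in each of the 4 comparisons by limma with Benjamini-Hochberg adjusted p under 0.05. At an unadjusted p under 0.05, 511 genes were higher and 291 lower for the mean of both siRNAs, 588 and 200 for siRNA 1, and 319 and 435 for siRNA 2. Adjusted p was at least 0.9997 for all 40 member differences. The values below are therefore levels and differences with their errors. All levels are on that log2 scale, in the order of the replicate numbers, and all differences are log2 with the siRNA group minus Control.

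Lama1 encodes the α chain of the first laminin of the embryo, made by endoderm. It stood at 3.41, 3.26 and 2.31 in siRNA 1, at 2.70 and 2.38 in siRNA 2, and at 2.17, 3.56 and 4.25 in Control. The groups overlapped, and the Control arrays held both the lowest and the highest of the 8 values, 4.23-fold apart. The difference was -0.34 (95% interval -1.60 to 0.93) for siRNA 1 and -0.79 (-2.20 to 0.63) for siRNA 2. The within-group SD of Lama1 was 0.776, wider than that of 97.2% of tested genes, whose median was 0.171. Without Control replicate 3 the siRNA 1 difference was 0.12 and the siRNA 2 difference -0.33, and without Control replicate 1 they were -0.92 and -1.37.

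Lama5 encodes the α chain that is found in most later epithelial basement membranes. It had the tightest values of the 10 genes, at 3.54, 3.38 and 3.29 in siRNA 1, 3.53 and 3.45 in siRNA 2, and 3.51, 3.59 and 3.52 in Control. Its difference was -0.14 (-0.35 to 0.08) for siRNA 1 and -0.05 (-0.28 to 0.19) for siRNA 2. The within-group SD was 0.0871, below that of most tested genes, and siRNA 1 replicates 2 and 3 lay below all Control arrays while replicate 1 did not.

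Lamb1 and Lamc1 encode the β and γ chains that both α chains can assemble with. Lamb1 stood at 3.85, 3.65 and 3.43 in siRNA 1, at 3.63 and 3.57 in siRNA 2, and at 3.71, 3.72 and 4.08 in Control. Lamc1 stood at 3.19, 3.27 and 2.83 in siRNA 1, at 2.93 and 3.01 in siRNA 2, and at 3.13, 3.21 and 3.81 in Control. For each gene both siRNA 2 arrays lay below all 3 Control arrays, siRNA 1 overlapped with Control, and Control replicate 3 was the highest of the 8. The siRNA 2 difference was -0.24 (-0.62 to 0.15) for Lamb1 and -0.41 (-0.94 to 0.12) for Lamc1. The siRNA 1 difference was -0.19 (-0.54 to 0.15) for Lamb1 and -0.28 (-0.76 to 0.19) for Lamc1. Without Control replicate 3 the siRNA 2 differences were -0.116 and -0.20.

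Nid1 and Nid2 encode the nidogens, which bind the laminin γ chain and collagen IV. Nid1 stood at -0.17, -0.66 and -0.87 in siRNA 1, at -0.72 and -0.82 in siRNA 2, and at -1.09, -0.55 and -0.42 in Control. Nid2 stood at 2.75, 2.15 and 2.08 in siRNA 1, at 2.35 and 2.13 in siRNA 2, and at 1.97, 2.29 and 2.13 in Control. In both genes siRNA 1 replicate 1 was the highest array and Control replicate 1 the lowest, and both of these arrays were on slide 1. The siRNA 1 difference was 0.12 (-0.42 to 0.67) for Nid1 and 0.20 (-0.26 to 0.65) for Nid2, and the siRNA 2 difference was -0.08 (-0.69 to 0.53) for Nid1 and 0.11 (-0.40 to 0.62) for Nid2. Nid2 was the 1 gene of the 10 with a mean above Control for both siRNAs. Without the arrays of slide 1 the siRNA 1 difference was -0.28 for Nid1 and -0.095 for Nid2. Nid1 had 2 further probes, of which 1 was well above background on only 5 arrays, and neither passed the test.

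Hspg2 encodes perlecan, a heparan sulfate proteoglycan that binds growth factors as well as laminin. It stood at 1.74, 1.78 and 1.53 in siRNA 1, at 1.55 and 1.75 in siRNA 2, and at 1.85, 1.58 and 1.97 in Control. Groups overlapped, with differences of -0.12 (-0.43 to 0.19) for siRNA 1 and -0.15 (-0.50 to 0.20) for siRNA 2. Without Control replicate 3 they were -0.033 and -0.064, and without Control replicate 2 they were -0.23 and -0.26. Its second probe gave -0.31 for siRNA 1, again without passing the test.

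Sparc encodes an acidic calcium-binding glycoprotein that binds collagen IV and is abundant in parietal endoderm. It stood at 6.21, 6.05 and 5.69 in siRNA 1, at 6.03 and 5.62 in siRNA 2, and at 5.71, 6.27 and 6.23 in Control. Groups overlapped because Control replicate 1 was close to the lowest siRNA arrays. The differences were -0.09 (-0.59 to 0.41) for siRNA 1 and -0.24 (-0.80 to 0.31) for siRNA 2. Without siRNA 1 replicate 3 the siRNA 1 difference was 0.057. A second Sparc probe read -0.59, -0.66 and -0.54 in siRNA 1, -1.04 and -1.52 in siRNA 2, and -1.11, 0.04 and -0.60 in Control. On that probe the siRNA 1 arrays lay together inside the wide Control range, and siRNA 2 replicate 2 lay below it.

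Serpinh1 encodes the collagen chaperone of the endoplasmic reticulum. It stood at 1.195, 1.41 and 1.02 in siRNA 1, at 0.96 and 0.72 in siRNA 2, and at 1.12, 1.69 and 1.91 in Control. Both siRNA 2 arrays were below every Control and every siRNA 1 array, while siRNA 1 overlapped with Control through Control replicate 1. Its mean over siRNA 1 arrays was 1.21 ± 0.20 (SD, n = 3). The siRNA 2 mean was 0.84 ± 0.17 (SD, n = 2), and the Control mean was 1.57 ± 0.41 (SD, n = 3). The difference was -0.73 (-1.29 to -0.17) for siRNA 2, a 1.66-fold lower signal, with an unadjusted limma p of 0.0175 and an adjusted p of 0.9997. For siRNA 1 it was -0.36 (-0.87 to 0.14), and for the mean of both siRNAs -0.55 (-1.001 to -0.10, adjusted p = 0.9998). In this fit, which has no term for the slide, Serpinh1 was the 1 member with an unadjusted p under 0.05. This held for siRNA 2, where 1.94% of all genes were lower at that level, and for the mean of both siRNAs, where 1.3% were. With the slide as a block, Lamc1 (-0.40) and Serpinh1 (-0.56) were both under that level for the mean of both siRNAs. In that fit 455 of the 22427 genes were lower at that level. With array weights, Lama1, Lamb1, Lamc1, Hspg2, Serpinh1 and P4ha2 were under it for the same mean, where 1383 of the 22427 genes were lower. No member was called in either fit. Without Control replicate 3 the siRNA 1 difference was -0.20, and without Control replicate 1 it was -0.59.

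P4ha2 encodes a catalytic subunit of collagen prolyl hydroxylase, whose product keeps the collagen helix stable. It stood at 0.43, 0.52 and 0.41 in siRNA 1, at 0.37 and 0.31 in siRNA 2, and at 0.33, 0.65 and 1.09 in Control. The 5 siRNA arrays lay within a narrow band, and Control replicate 1 lay inside it while the other Control arrays lay above. The difference was -0.23 (-0.66 to 0.19) for siRNA 1 and -0.35 (-0.82 to 0.12) for siRNA 2. Without Control replicate 3 the difference for the mean of both siRNAs was -0.09, against -0.29 with it.

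**Figure D1:**
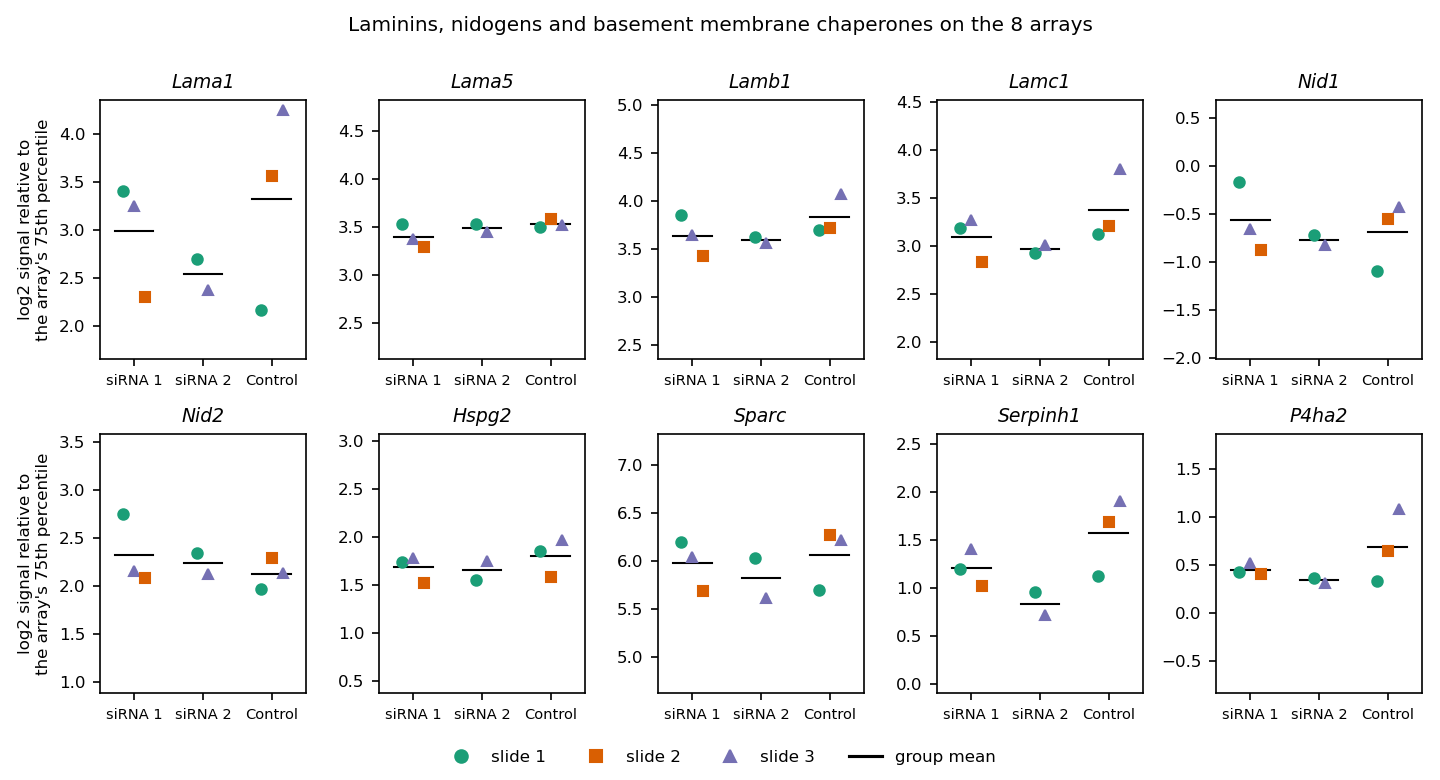
Log2 signal relative to the 75th percentile of the array for each of the 10 genes (y axis, the same span in every panel) in siRNA 1, siRNA 2 and Control (x axis), with 1 point per array marked by slide and a line at the group mean. Control replicate 3 on slide 3 is the highest array for Lama1, Lamb1, Lamc1, Hspg2, Serpinh1 and P4ha2, and Lama1 has the widest spread.

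RefSeq's table (assembly GRCm38.p6) gave the bases before 1 start site for 7 of the 10 genes. Promoters of 4 genes are shown, each 250 bases long and written 5′ to 3′ on the strand of the gene. Serpinh1, P4ha2 and Lamb1 are shown because both siRNA 2 arrays lay below all Control arrays (Serpinh1 and Lamb1) or all siRNA 1 arrays (Serpinh1 and P4ha2), and Sparc because it was the 1 window of the 7 with none of the motifs searched. Capitals mark matches, on either strand, to GGGCGG (the GC box) and CCAAT, and matches do not overlap in the windows shown. The gene span in RefSeq begins further upstream for some, so that 147 of the 250 bases of Lamb1, with both of its GC boxes, lie inside the gene, as do 52 of Hspg2 and 45 of Lama5. The windows are chr7:99353240-99353489 (minus strand), chr11:54100674-54100923 (plus strand), chr12:31265043-31265292 (plus strand) and chr11:55420081-55420330 (minus strand).
Serpinh1: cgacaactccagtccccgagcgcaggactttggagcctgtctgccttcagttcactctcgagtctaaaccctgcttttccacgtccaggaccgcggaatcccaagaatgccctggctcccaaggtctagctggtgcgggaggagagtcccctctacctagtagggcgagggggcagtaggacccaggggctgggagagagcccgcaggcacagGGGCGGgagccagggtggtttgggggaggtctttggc
P4ha2: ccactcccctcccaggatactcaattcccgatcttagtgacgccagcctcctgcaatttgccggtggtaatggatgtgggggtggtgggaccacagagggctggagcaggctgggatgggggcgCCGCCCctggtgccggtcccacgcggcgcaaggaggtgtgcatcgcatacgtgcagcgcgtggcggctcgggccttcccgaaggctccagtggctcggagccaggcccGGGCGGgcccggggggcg
Lamb1: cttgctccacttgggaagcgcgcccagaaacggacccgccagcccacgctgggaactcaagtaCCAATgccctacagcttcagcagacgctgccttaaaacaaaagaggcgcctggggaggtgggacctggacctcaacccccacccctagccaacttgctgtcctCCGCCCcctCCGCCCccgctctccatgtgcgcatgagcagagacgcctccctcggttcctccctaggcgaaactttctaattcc
Sparc: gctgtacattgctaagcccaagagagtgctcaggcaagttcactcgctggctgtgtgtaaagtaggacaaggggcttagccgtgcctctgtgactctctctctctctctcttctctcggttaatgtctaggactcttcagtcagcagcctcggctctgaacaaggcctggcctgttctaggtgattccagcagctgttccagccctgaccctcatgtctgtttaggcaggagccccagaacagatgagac
GGGCGG was found in 6 of the 7 member windows and in 32.7% of 32851 promoters of the same length. CCAAT was found in 2 (Lamb1 and Nid1), against 33.8% of all. GATAA, the core that GATA factors read, was in 0 of the 7, against 22.6% of all. The TATA box letters TATAAA were in 0, against 12.4% of all. A unit of the heat shock element, GAANNTTC, was in 0 as well, against 6.69% of all. The GC content of the 7 windows ran from 54% in Sparc to 72.4% in Lama5, with a median of 52.4% over all windows. These counts describe letters in the windows and say nothing about binding.

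Across the 10 genes the differences leaned low. For siRNA 2, 9 of 10 were below Control with a median of -0.24, against 50.1% of all genes and a median near 0. For siRNA 1, 8 of 10 were below with a median of -0.16, against 41.7% of all genes, and for the mean of both siRNAs 8 of 10 were below with a median of -0.19, against 46.9% of all genes. Both siRNA comparisons share the 3 Control arrays. The median for the mean of both siRNAs was -0.09 without Control replicate 3 and -0.31 without Control replicate 1. Without the arrays of slide 1, which leaves siRNA 2 with only its replicate 2, it was -0.41 and all 10 genes were below Control. For siRNA 1 alone it was -0.035 without Control replicate 3 (7 of 10 below), -0.26 without Control replicate 1 and -0.060 without siRNA 1 replicate 3 (6 of 10 below). For siRNA 2 it was -0.13 without Control replicate 3 and -0.36 without Control replicate 1. Every siRNA 2 array was below every Control array for Lamb1, Lamc1 and Serpinh1, and 8.09% of all genes showed this. No member had all 5 siRNA arrays below all Control arrays, as 0.985% of all genes had.

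**Figure D2:**
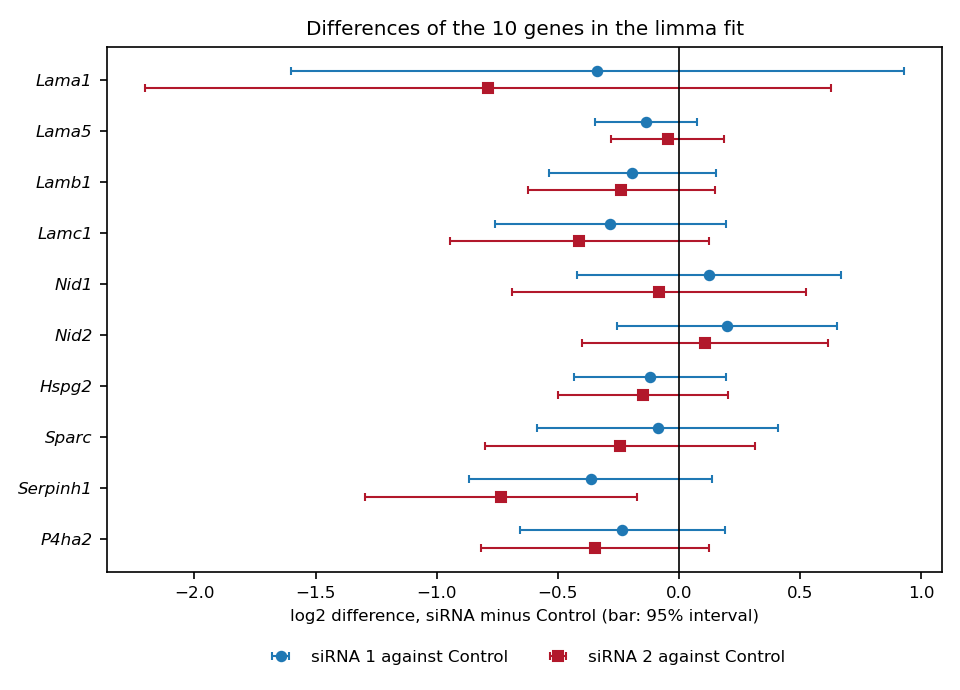
Log2 difference of siRNA 1 (circles) and siRNA 2 (squares) minus Control on the x axis for the 10 genes down the y axis, with bars for the 95% interval of the limma fit. The interval excludes 0 only for Serpinh1 with siRNA 2, at -0.73, and is widest for Lama1.

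Between the siRNAs, siRNA 2 stood below siRNA 1 for 9 of the 10 genes, against 57.4% of all genes, with a median difference of -0.12. That median was -0.023 without siRNA 1 replicate 1 (7 of 10 below) and -0.24 without siRNA 1 replicate 3. It was -0.050 without the arrays of slide 1 (6 of 10 below), which leaves siRNA 2 with only its replicate 2. Serpinh1 differed by -0.37 (-0.93 to 0.19) and Lama1 by -0.45 (-1.87 to 0.96). Lama5 was the exception at 0.09 (-0.15 to 0.32). Both siRNA 2 arrays were below all siRNA 1 arrays for Serpinh1 and P4ha2, and 11.7% of all genes showed this.

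Within slides the differences varied from slide to slide. The siRNA arrays of a slide share its only Control array, so the slide and the level of that array cannot be told apart. On slide 1, siRNA 1 was below the Control array for 1 of 10 genes (median 0.12) and siRNA 2 for 4 of 10 (median 0.03), where 45.9% and 47.1% of all genes were. On slide 2, siRNA 1 was below for 10 of 10 (median -0.31), where 50.2% of all genes were. On slide 3, siRNA 1 was below for 9 of 10 (median -0.33) and siRNA 2 for 10 of 10 (median -0.56), where 40.9% and 51.7% of all genes were. Lama1 showed the contrast most plainly, at 1.24 and 0.53 for siRNA 1 and siRNA 2 on slide 1, and at -1.25, -0.996 and -1.87 for siRNA 1 on slide 2, siRNA 1 on slide 3 and siRNA 2 on slide 3. Serpinh1 gave 0.08 and -0.16 on slide 1 and -0.67, -0.50 and -1.19 in the same order on the others. Hspg2 was the 1 member below the Control array of its slide in all 5 pairs, from -0.30 to -0.05, and 3.8% of all genes were. A fit of slide 1 against the other slides within groups called 1344 genes (5.99%) and none of the 10, whose adjusted p by limma lay between 0.70 and 0.993. Its slide term is shared by all groups, so it cannot read siRNA differences that change from slide to slide. On slide 1 the 10 genes' summed signal, in multiples of the 75th percentile, was 134 in siRNA 1 and 115.5 in siRNA 2, against 101 in Control. It was 95.2 in siRNA 1 against 137 in Control on slide 2, and 121 in siRNA 1 and 96.3 in siRNA 2 against 151 in Control on slide 3.

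**Figure D3:**
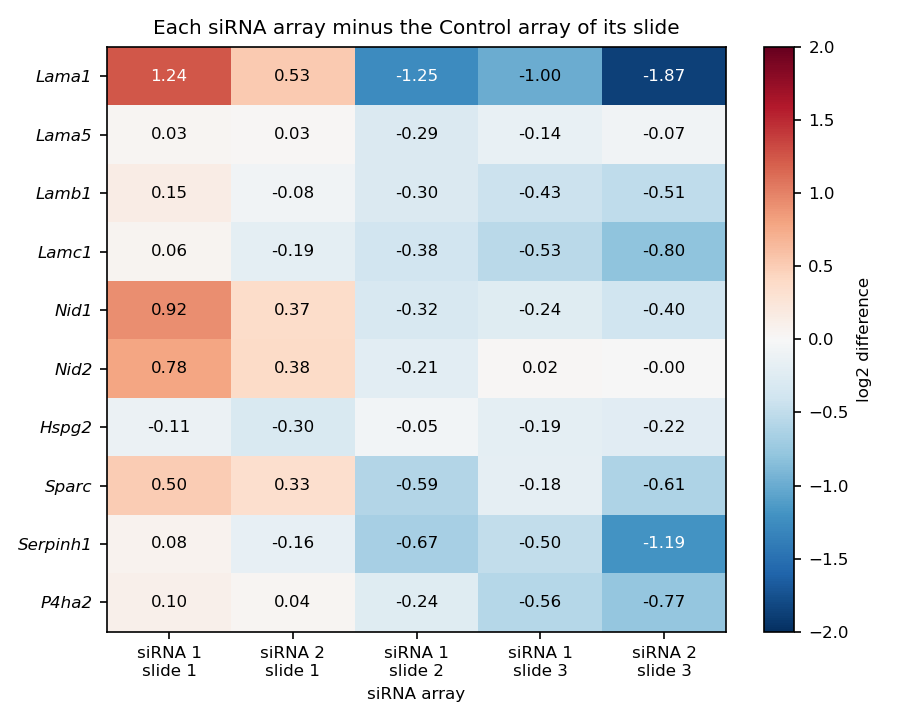
Log2 difference of each siRNA array minus the Control array of its slide, with the 10 genes in rows and the 5 siRNA arrays in columns, coloured from blue (below Control) to red (above). Most cells of the 2 slide 1 columns are above 0 and nearly all cells of the other columns are below, with Lama1 the most extreme in both directions.

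The 10 genes varied together only in part. Their median deviation from each gene's own 8-array mean was 0.11, 0.04 and -0.22 in siRNA 1, -0.11 and -0.16 in siRNA 2, and -0.15, 0.11 and 0.31 in Control. In siRNA 1 replicate 3 none of the 10 was above its mean, and in Control replicates 2 and 3, 9 of 10 were. Likeness was taken as the root mean square distance in log2 between a gene's deviations and this median profile over the 8 arrays, as a description of arrays that share slides. Lamb1 was the closest member at 0.080 and Lama1 the farthest at 0.518, against a median of 0.235 over all tested genes. Each member is itself part of the profile, so that median is not a like comparison. The closest pairs of members were Lamc1 with P4ha2 (0.119), Lamb1 with Hspg2 (0.128) and Lamb1 with Lamc1 (0.134). A distance of this kind also grows with a gene's own spread, which was widest for Lama1. Outside the 10, the genes nearest to the profile were Fabp3 (0.062), Moxd1 (0.067), Tex264 (0.072), Lmna (0.072) and Dap (0.075). Fabp3 encodes a fatty acid carrier and Lmna the nuclear lamins A and C.

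Other genes of the basement membrane were read from lists, and none of them was called in any comparison. The genes named from each list were taken for their small p, so an interval that excludes 0 may follow from that choice. Of the other laminin chains, 7 of 8 were tested, with 5 of 7 below Control for siRNA 2 (median -0.05) and 4 of 7 for siRNA 1 (median -0.03). Lamb3, a chain of skin laminin, was higher in all 5 siRNA arrays than in any Control array, at a difference of 0.30 (0.07 to 0.53) for the mean of both siRNAs. Such a separation upward was seen in 2.47% of all genes. Lama4, a chain of vessel and muscle laminins, stood at 0.41 (0.05 to 0.76) for siRNA 2, and Lamc3 at -1.02. The Lamc3 probe was well above background on 3 Control, 2 siRNA 1 and 1 siRNA 2 arrays. It therefore entered the test only through Control, the group where it was highest. With normexp background correction and quantile normalization together, Lamc3 gave -0.14, Lama4 0.22 and Lamb3 0.16.

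Of 21 other basement membrane proteins tested, 17 were below Control for siRNA 2 (median -0.15) and 13 for siRNA 1 (median -0.04). For siRNA 2, Col4a1 and Col4a2, the chains of the collagen IV that Serpinh1 serves, stood at -1.201 (-2.20 to -0.20) and -1.24 (-2.32 to -0.16). For siRNA 1 they stood at -0.59 and -0.68. Col4a1 read -0.18, 0.46 and -0.25 in siRNA 1, -0.77 and -0.44 in siRNA 2, and -0.01, 0.36 and 1.43 in Control, so Control replicate 3 was the highest array here too. Fbln2, a fibulin that binds laminin and nidogen, stood at -0.23 for the mean of both siRNAs.

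Of 24 tested collagen-modifying enzymes and chaperones of the endoplasmic reticulum, 12 were below Control for siRNA 2 (median 0.00) and 18 for siRNA 1 (median -0.06). For siRNA 2, P4ha1, the other main prolyl hydroxylase subunit, gave -0.47 (-1.06 to 0.11, and -0.17 with normexp and quantile normalization). Pdia4, a disulfide isomerase, gave 0.17 for siRNA 2. For siRNA 1, P4ha1 gave -0.057 and Pdia4 -0.054. For the mean of both siRNAs, the collagen prolyl 3-hydroxylase gene P3h2 gave -0.31 (-0.04 with that processing) and the collagen galactosyltransferase gene Colgalt1 -0.14.

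Of 28 tested receptors, 18 were below Control for siRNA 2 (median -0.06) and 22 for siRNA 1 (median -0.09). Itgb5, an integrin β subunit for vitronectin, read 1.90, 2.15 and 2.07 in siRNA 1, 2.14 and 2.13 in siRNA 2, and 2.66, 2.27 and 2.46 in Control. All 5 siRNA arrays lay below all Control arrays, as they did in 0.985% of all genes. The difference was -0.38 (-0.63 to -0.12) for the mean of both siRNAs. The laminin receptor subunit gene Itga7 gave -0.15 in that comparison, with the same separation (-0.06 with normexp and quantile normalization).

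Of 24 tested matrix-degrading enzymes and inhibitors, 12 were below Control for siRNA 2 (median -0.01) and 13 for siRNA 1 (median -0.02). The metalloprotease gene Adam19 gave 0.32 and the inhibitor gene Timp2 -0.32 for the mean of both siRNAs. Adamts9, a secreted protease, gave -0.52 and the protease inhibitor gene Serpine2 -0.24 for siRNA 2.

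**Figure D4:**
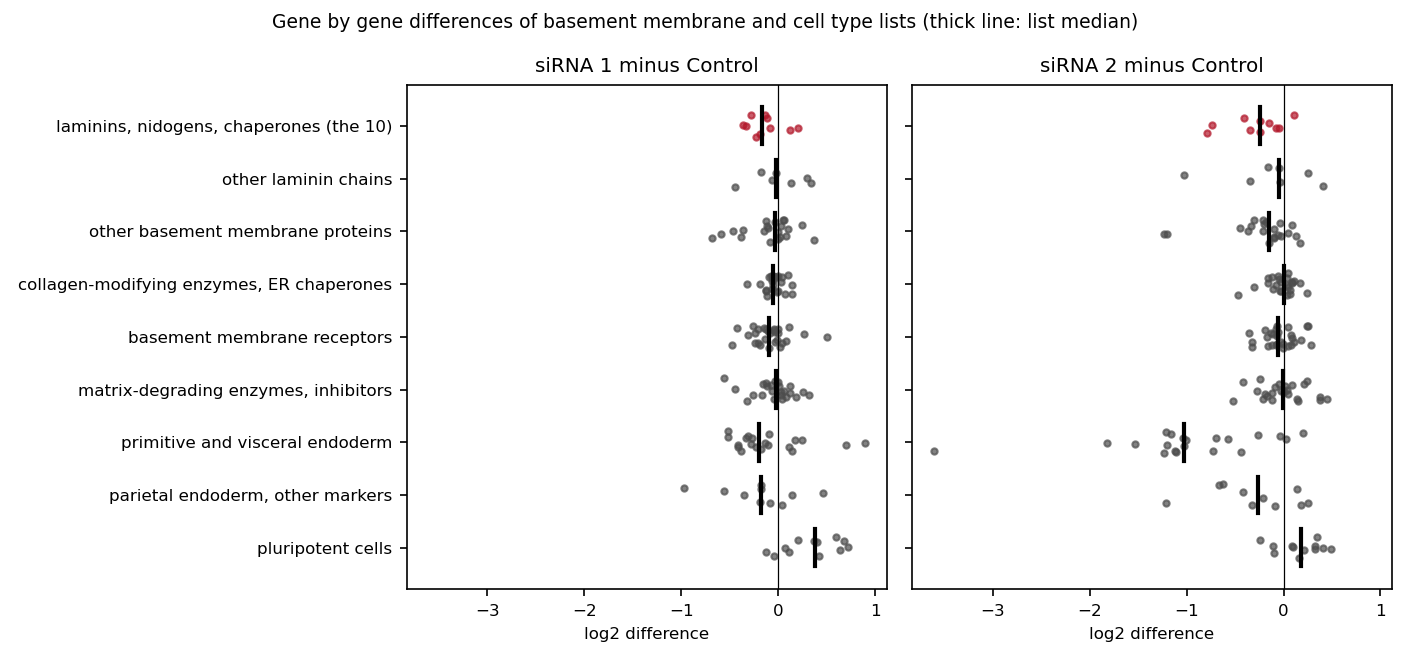
Log2 difference minus Control (x axis) for siRNA 1 (left) and siRNA 2 (right), with 1 point per gene, lists down the y axis and a thick line at the list median. The 10 genes (red) have medians of -0.16 and -0.24, and the primitive and visceral endoderm list has the lowest median for siRNA 2, at -1.03.

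Cell type markers were read beside the 10 genes, and none was called in any comparison. In bulk RNA fewer cells of a type and less RNA per cell cannot be told apart. All 12 pluripotency markers of the labelled stem cells were tested. Of these, 10 were above Control for siRNA 1 (median 0.38) and 9 for siRNA 2 (median 0.18). The shares of all genes below Control were 41.7% for siRNA 1 and 50.1% for siRNA 2. Between the siRNAs, 11 of 12 pluripotency markers were lower in siRNA 2, against 57.4% of all genes. Of 20 tested primitive and visceral endoderm markers, 18 were below Control for siRNA 2 (median -1.03) and 14 for siRNA 1 (median -0.20). Both siRNA 2 arrays lay below every Control array for 15 of the 20, against 8.09% of all genes, and 12 were lower at an unadjusted p under 0.05, against 1.94%. The median deviation of the list from its 8-array means was -0.69 to -0.51 in siRNA 2 and -0.19 to 0.68 in Control, without overlap. Their summed signal ranged over 35.7 to 48.6 in siRNA 1, 33.9 to 36.0 in siRNA 2 and 34.9 to 49.3 in Control, and in this sum, which bright genes dominate, siRNA 2 overlapped with Control replicate 1. Afp, the secreted fetal albumin relative, failed the background flag on both siRNA 2 arrays, and Apoa1 was not tested. Another 10 parietal endoderm markers were read that are not among the 10 genes. Their summed signal was 17.5 to 19.2 in siRNA 1, 16.5 to 16.6 in siRNA 2 and 16.3 to 20.6 in Control. Their median difference was -0.18 for siRNA 1 and -0.27 for siRNA 2. The 10 genes' own summed signal was 95.2 to 134 in siRNA 1, 96.3 to 115.5 in siRNA 2 and 101 to 151 in Control. The part of the endoderm in the values of the 10 genes was not tested.

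Fibroblast markers, 11 of 13 tested, had a median difference of -0.08 for siRNA 1 and -0.11 for siRNA 2. Their summed signal was 4.31 to 5.19 in siRNA 1, 5.03 to 5.07 in siRNA 2 and 4.69 to 5.25 in Control. Postn and Lum were not tested. Fap failed the background flag on all 5 siRNA arrays and so entered the test only through Control. Of 8 endothelial markers, Cdh5, Tie1, Emcn and Erg were not tested, and the other 4 were above Control for both siRNAs, with summed signals of 0.796 to 0.9752 in siRNA 1, 0.855 to 0.920 in siRNA 2 and 0.71 to 0.797 in Control. Primitive streak and mesoderm markers, 11 of 13 tested, had a median difference of -0.32 for siRNA 1 (7 of 11 below Control) and -0.66 for siRNA 2 (9 of 11). Both siRNA 2 arrays lay below every Control array for 7 of the 11, against 8.09% of all genes. At an unadjusted limma p under 0.05, 6 were lower for siRNA 2, against 1.94%. Their summed signal was 7.68 to 11.1 in siRNA 1, 7.72 to 8.01 in siRNA 2 and 10.5 to 12 in Control, without overlap between siRNA 2 and Control.

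**Figure D5:**
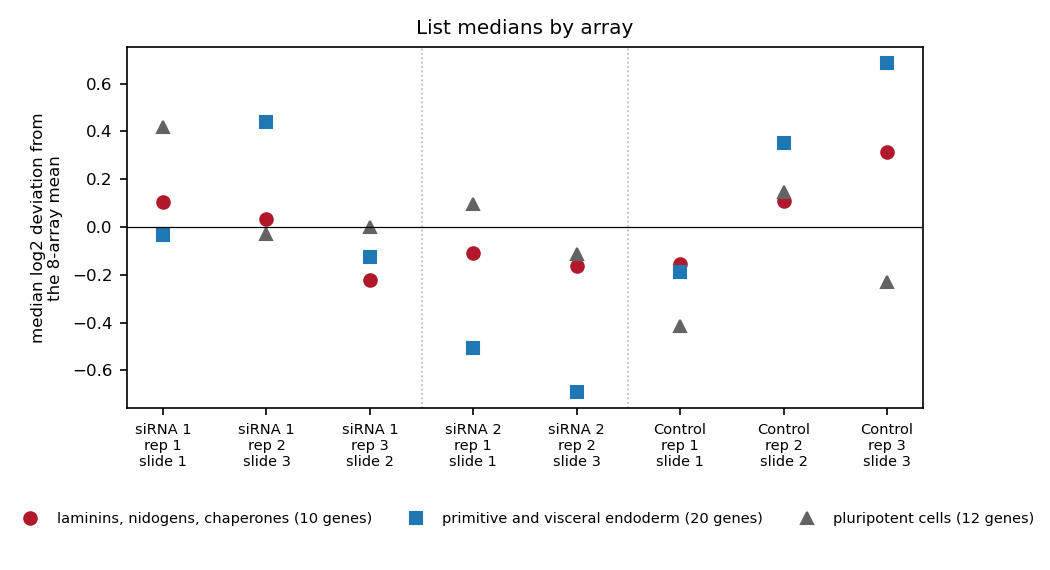
Median log2 deviation from the 8-array mean (y axis) on each of the 8 arrays (x axis, by group, replicate and slide) for the 10 genes, 20 primitive and visceral endoderm markers and 12 pluripotency markers. The 10 genes and the endoderm list are both highest in Control replicate 3, and the endoderm list is lowest in the 2 siRNA 2 arrays.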

How the data were processed

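Each deposited scanner file held the spot intensity of 1 array, which the authors obtained with Agilent's Feature Extraction software (10.7.3.1) and which was already background-corrected, per the file headers. RMA is named in the submitters' processing notes without saying where it was used. A deposited table of log2 values matched the main values below after centring every probe on its median of 8 arrays. Its column medians were -0.04 to 0.02, and the columns Control 2 and Control 3 matched the scanner files of one another, whose names were kept.

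Control and outlier spots were left out, the log2 processed intensity of each array was scaled by subtracting its 75th percentile, and accessions were matched to symbols through a RefSeq table (26424 of 39429 probes). The array design used mm9, so array coordinates are not given. A gene was tested if all arrays of 1 or more groups had its probe well above background. One fit of the 3 groups used limma 3.58.1 (R 4.3.3), with Benjamini-Hochberg adjustment over 22427 genes and 5 residual and 2.08 prior degrees of freedom. It was tested on simulated data with independent noise, no slide effect in the group comparisons, and planted changes larger than any member difference. Python 3.11.15 (pandas 2.3.3, matplotlib 3.10.9) made the tables and plots. The members and lists were chosen with earlier results of these data known. All probes of the members are named, with, for each of the 5 lists of basement membrane genes, the 2 genes of smallest p in the comparison of the mean of both siRNAs and in that of siRNA 2, and the 5 genes most like the members' profile. A further gene that this rule takes is not reported here, and counts include it. Alternatives were other normalizations, filters on dim probes, probe rules, fits, blocks and left-out arrays.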

Additional observations from a re-analysis of the deposited data

How the results depend on the processing

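Under the 19 alternatives no member was called (lowest adjusted p by limma 0.108), 719 of 750 member differences kept their direction and 31 did not. Some of the 750 could not change, because some alternatives leave a member's difference as it is. These include leaving out an array of a group not compared, fitting only the groups compared, and filters that keep the same probe. Genes called were 0 in nearly all fits. Exceptions were 23 for the mean of both siRNAs with array weights, 1 for siRNA 2 against siRNA 1 with only the groups compared, and 0 to 1 for siRNA 2 leaving out 1 array each (1 without siRNA 2 replicate 2). The slide 1 fit, whose alternatives were chosen after seeing the data, called 2740 genes with array weights and 802 to 1265 leaving out 1 array each. Without the arrays of slide 1 the members' median was -0.41 for the mean of both siRNAs and -0.37 for siRNA 1. Without slide 1, or without either siRNA 2 replicate, siRNA 2 rests on 1 array. Nid1 turned to -0.000987 (slide as a block), -0.24 (array weights) and -0.31 (without slide 1) for the mean of both siRNAs, and to -0.19 (array weights) and -0.28 (without slide 1) for siRNA 1. Without slide 1, Nid2 was -0.088 for the mean, -0.095 for siRNA 1 and -0.081 for siRNA 2, and between the siRNAs Lamb1 was 0.030, Nid2 0.013 and Hspg2 0.10. Between the siRNAs, Nid2 was 0.038 with array weights and Hspg2 was 0.011 with normexp and quantile normalization and 0.050 with the mean of probes. Leaving out 1 array each gave Nid1 -0.18 to 0.15 for the mean, -0.078 to 0.28 for siRNA 1 and -0.28 to 0.051 for siRNA 2. For siRNA 1 it gave Lama1 -0.92 to 0.12, Nid2 -0.013 to 0.32 and Sparc -0.27 to 0.057, and between the siRNAs Lamb1 -0.15 to 0.060, Nid2 -0.21 to 0.12, Hspg2 -0.13 to 0.069 and Sparc -0.36 to 0.054. The cause of these turns was not tested. Same-numbered samples' deviations correlated from -0.041 to 0.698 over 7 pairs, so the numbers are not taken as a pairing. This rests on the scanner files' names for Control 2 and 3: with those of the value table the numbers would follow the slides, whose pairs correlated from 0.044 to 0.698. The fit with the replicate number as a block called 0 genes in each of the 4 comparisons, as did that with the slide as a block. Dim probes set the limit for Lamc3 and 1 Nid1 probe.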
